A study of Mus musculus with 10 samples.

Results

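Distal chromosome 8 is the stretch of mouse chromosome 8 that carries Foxc2, the gene labelled as deleted in one of the 2 cell lines compared. The genes described here are the rows of the deposited table that lie on chromosome 8 and start no more than 6 Mb proximal of the targeted locus, or anywhere beyond it, 98 of 10735 genes in all (build GRCm38). The locus was taken as a point 0.0916 Mb before the interval of Mthfsd (chr8:121091628-121108392), and distances run from that point to the lower coordinate of each gene, negative towards the centromere. The point is a rounded position and not the coordinates of Foxc2 itself. Distance from Foxc2, and the side on which a gene lies, are therefore approximate for the nearest genes. The GENCODE annotation of the same build places 143 protein-coding genes in this interval, and those without a row, the targeted gene included, were not analysed here. Of the 98 genes, 96 reached a mean of 0.5 FPKM over the libraries and were tested. FPKM is the number of sequenced fragments of a gene, scaled to the length of its transcript and to all mapped fragments of the library.

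RNA was sequenced from B16-F1, a mouse melanoma line of C57Bl/6 background, in 5 wild-type libraries and in 5 libraries of its derivative B16-F1ΔFOXC2 (genotype label delta FOXC2). Both were grown in RPMI-1640 growth medium for 24 h to about 90% confluence, at passages 5 to 10. The labels do not say how the deletion was made, whether the ΔFOXC2 cells are 1 clone, or how far the replicates are separate cultures. A p-value here covers the spread among these libraries, which may be technical, and the deletion cannot be told apart from any other difference between both lines.

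Foxc2 encodes a forkhead transcription factor known for its part in lymphatic and vascular development and in epithelial-mesenchymal transition. Those of its chromosomal neighbours that have a row are mostly unrelated to it in function. They include a subunit of cytochrome c oxidase, an autophagy protein, the melanocortin receptor of pigment cells and subunits of the replication machinery. Genes that lie side by side can share regulatory elements and chromatin, so a set of neighbours can be described by position as well as by role.

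All 7 melanocyte lineage markers (Mitf, Sox10, Pmel, Mlana, Tyr, Tyrp1 and Dct) had a row, with a summed level of 3183 to 3651 FPKM in wild-type cells and 3821 to 4215 FPKM in ΔFOXC2 cells. Of 6 leukocyte markers, Cd68 and Lyz2 had a row, with a sum of 0.757 to 1.40 FPKM in wild-type cells and 2.53 to 4.59 FPKM in ΔFOXC2 cells. The others, Ptprc, Csf1r, Adgre1 and Cd3e, had none. None of 4 endothelial markers and 1 of 5 fibroblast markers, Col1a2 (summed 0.823 to 0.899 against 0.581 to 0.931 FPKM), had a row. The sum of FPKM over all genes was 240441 to 251273 per library. The part of these marker differences in the results that follow was not tested. The depth in reads is unknown. In bulk RNA, fewer cells of a kind and less RNA per cell cannot be told apart.

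The wild type expressed most distal chromosome 8 genes above their level in ΔFOXC2 cells, with a median fold of 1.29. The median log2 difference of the 96 tested genes, wild type minus ΔFOXC2 on log2(FPKM + 0.1), was 0.37, with quartiles of 0.22 and 0.52, and 87 of the 96 lay above 0. Of these genes, 16 rose and 1 fell in the wild type relative to ΔFOXC2 cells, and 79 were not called. A call needs 0.05 or less as limma's adjusted p and at least a 1.5-fold difference. Over all 10570 tested genes, 3.65% were called higher and 4.97% lower, against 16.7% and 1.04% here, and the median over all of them was 0.01. With the fold left aside, 68 of the 96 passed limma's adjusted p as higher and 4 as lower, where the background was 20.8% and 20.7%. The groups did not overlap in 56 genes that were higher in the wild type and in 4 that were lower, where 14.9% and 15.1% of all tested genes did so.

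The shift was present in each library. The median deviation of the 96 genes from their own means was 0.17, 0.12, 0.21, 0.19 and 0.19 on the log2 scale in wild-type replicates 1 to 5, and -0.19, -0.18, -0.20, -0.15 and -0.16 in ΔFOXC2 replicates 1 to 5. Every wild-type library was above every ΔFOXC2 library, and no single library set the difference. The genes off chromosome 8 had medians between -0.01 and 0.02 in the same libraries. The 98 genes made up 0.757% ± 0.0203 of the FPKM sum in the wild type (SD, n = 5) and 0.577% ± 0.00646 in ΔFOXC2 cells (n = 5). These are descriptions without a test, since the region was chosen with its shift known.

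**Figure D1:**
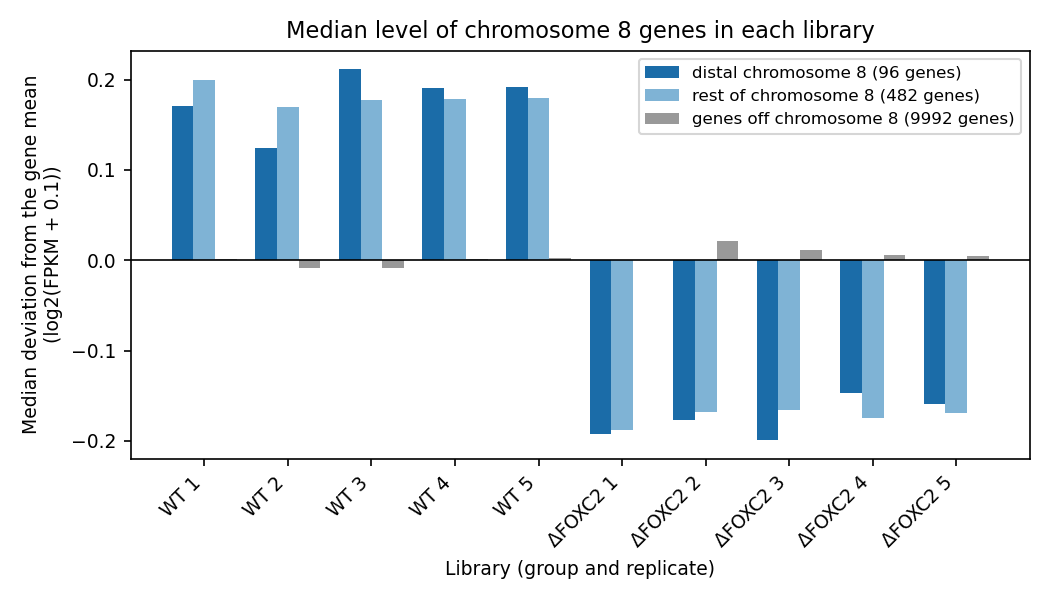
Bars give, for each library, the median over genes of log2(FPKM + 0.1) minus the gene's mean over 10 libraries. The 96 distal genes and the 482 tested genes on the rest of chromosome 8 sit above 0 in the 5 wild-type libraries and below 0 in the 5 ΔFOXC2 libraries, while the 9992 genes off chromosome 8 stay near 0.

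The rest of the chromosome was shifted by a like amount. Its 482 tested genes had a median log2 difference of 0.36 with quartiles of 0.19 and 0.50, and 89.4% of them were above 0, against 90.6% of the distal genes. Called higher were 15.8% of them and called lower 0.622%. Split by position, the median was 0.38 below 40 Mb, 0.34 from 40 to 80 Mb (157 genes) and 0.37 from 80 Mb to the distal region (208 genes). A running median over 15 neighbouring genes was above 0 in all 564 windows of the chromosome. The 2 tested genes just proximal of the region were Nudt7 (0.900 ± 0.139 against 1.03 ± 0.149 FPKM, log2 -0.18) and Wwox (0.955 ± 0.0980 against 0.750 ± 0.145 FPKM, log2 0.32). Just inside it were Maf (8.93 ± 0.503 against 5.50 ± 0.408 FPKM, log2 0.69) and Cdyl2 (0.817 ± 0.231 FPKM, listed at 0 in ΔFOXC2 cells), which was under the filter.

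**Figure D2:**
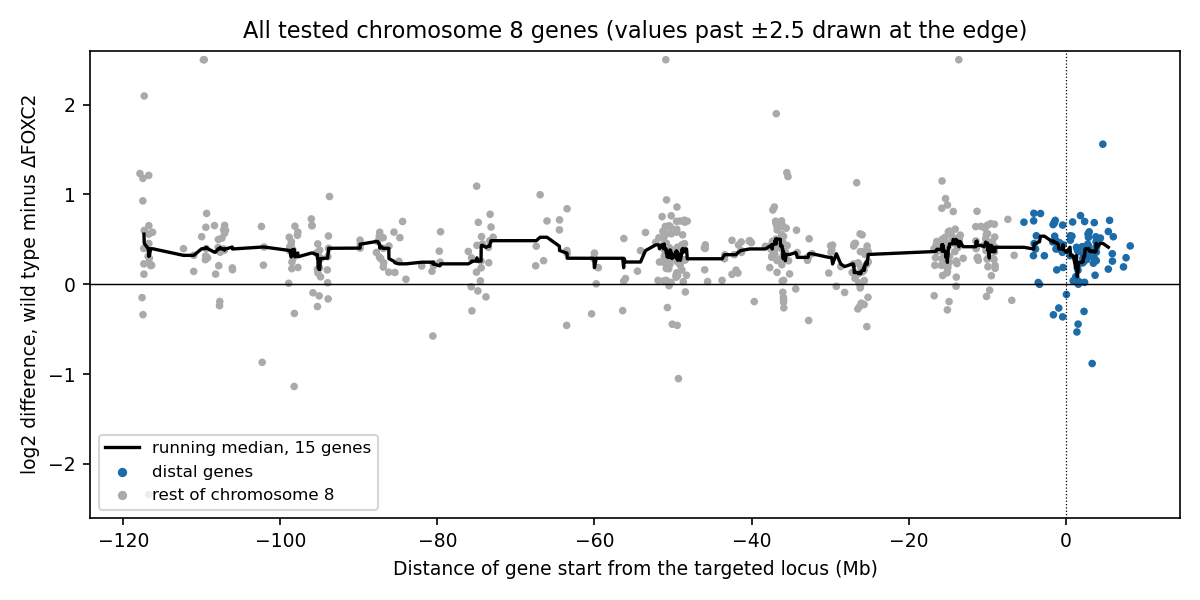
Points are the 578 tested genes of chromosome 8, with the log2 difference on the vertical axis and the distance of the gene start from the targeted locus in Mb on the horizontal axis, and the black line is the running median over 15 genes. The line stays above 0 from end to end, between 0.08 and 0.56, and its lowest point lies among the distal genes (blue). Values past 2.5 in either direction are drawn at the edge.

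The differences showed no steady order with distance from the targeted locus. The median was 0.39 for the 15 genes within 1 Mb of the locus, 0.38 for the 24 genes at 1 to 2 Mb and 0.32 for the 40 genes at 2 to 4 Mb. Farther out it was 0.51 for the 13 genes at 4 to 6 Mb and 0.36 for the 4 genes beyond 6 Mb. Across the 96 genes, which share the same 10 libraries, the log2 difference and the absolute distance had a Spearman rho of 0.16 and a Pearson r of 0.19. For the signed distance rho was -0.08. Of these classes, those under 1 Mb, at 4 to 6 Mb and beyond 6 Mb hold under 20 genes.

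**Figure D3:**
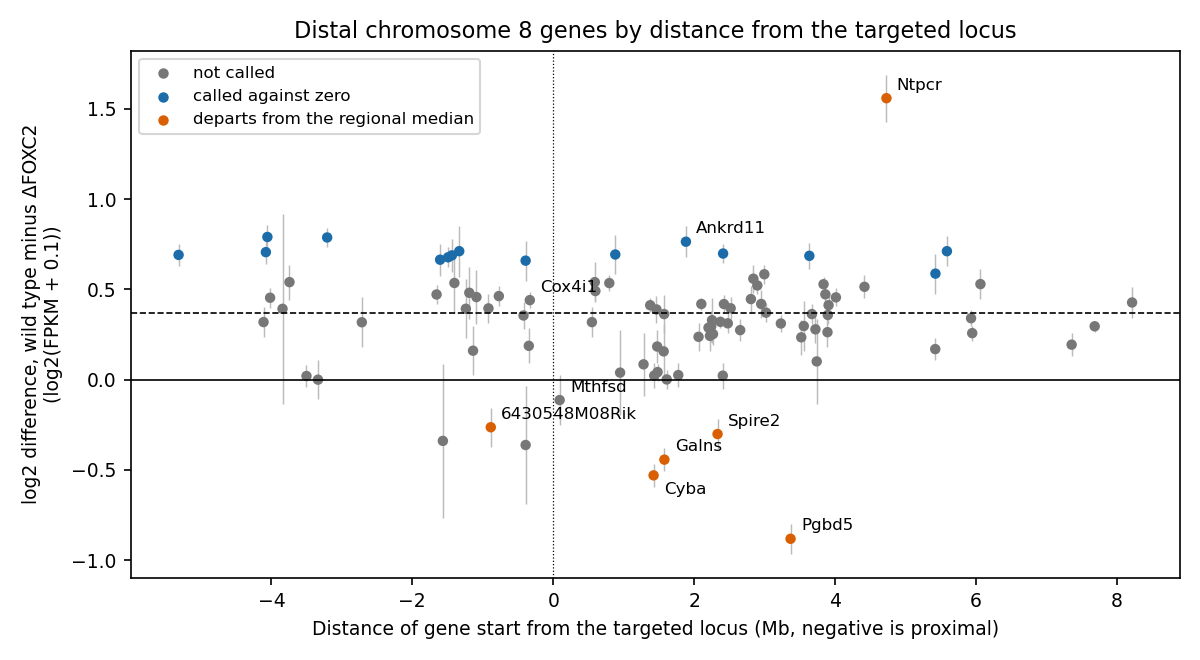
Each point is 1 of the 96 tested distal genes, with its log2 difference and standard error against the signed distance of its start from the targeted locus in Mb. The dashed line is the regional median of 0.37, and blue points were called against 0. Orange points depart from the regional median taken per library (among these Ntpcr and Pgbd5 were also called against 0).

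By signed position, the differences varied more. The 5 genes lying 4 to 6 Mb proximal of the locus had a median of 0.69, the 6 at 2 to 4 Mb proximal one of 0.36, and the 11 at 1 to 2 Mb proximal one of 0.48. The 8 genes in the last 1 Mb before the locus had a median of 0.38 and the 7 in the first 1 Mb beyond it 0.49. The 13 genes lying 1 to 2 Mb beyond the locus had a median of 0.08, and without them the median of the other 83 was 0.39. Farther out the median was 0.32 at 2 to 3 Mb (20 genes), 0.36 at 3 to 5 Mb (17 genes) and 0.34 from 5 Mb to the end (9 genes). The 15-gene running median was lowest on the whole chromosome around Rnf166, 1.47 Mb beyond the locus, at 0.08. Among the distal genes it was highest around Mphosph6, at 0.54.

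The 13 genes of the low stretch did not move alike. With the fold left aside, 4 passed as higher (Zc3h18, Rnf166, Aprt and Ankrd11), 2 as lower (Cyba and Galns) and 7 did not pass. These are 30.8% and 15.4% of the stretch, where 20.8% and 20.7% of all tested genes passed. Ankrd11, a chromatin regulator, rose there, with 37.0, 46.3, 44.0, 43.7 and 52.7 FPKM in wild-type cells and 24.4, 27.4, 29.8, 24.95 and 24.5 FPKM in ΔFOXC2 cells. Its groups did not overlap (log2 0.76, SE 0.0873, limma adjusted p = 4.138e-05). Piezo1, a mechanically gated cation channel, had 17.3 ± 1.07 and 16.8 ± 0.370 FPKM (log2 0.04, limma adjusted p = 0.509). Trappc2l, of a vesicle tethering complex, had 11.8 ± 0.741 against 11.8 ± 0.513 FPKM (log2 0.00, limma adjusted p = 0.990). Mvd, the mevalonate decarboxylase of sterol synthesis, had 10.3 ± 0.693 against 10.1 ± 0.925 FPKM (log2 0.02, limma adjusted p = 0.822). Trappc2l and Mvd were chosen after their values were seen. These 3 genes lay below the regional median, taken per library, by 0.31 to 0.35, less than 1.5-fold.

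The low stretch also differs in base composition. The longest protein-coding transcript had a median GC content of 58.5% for its 13 genes and 53.7% for the other 83. Across all 96 genes the log2 difference and GC content had a Spearman rho of -0.21, and across the 83 outside the stretch -0.07. By GC class, the median log2 difference was 0.39 for the 19 members under 50%, 0.39 for the 32 at 50 to 55% and 0.32 for the 45 over 55%. On the rest of chromosome 8 rho was 0.03 over 481 genes. The medians of the same classes there were 0.36, 0.37 and 0.37, the last for 153 genes. The part of base composition in the low stretch was not tested.

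The median difference was smaller among genes at a low level. The 22 genes with a mean under 3 FPKM had a median log2 difference of 0.26, the 38 genes from 3 to 10 FPKM one of 0.40, and the 36 genes at 10 FPKM or more one of 0.42. All 36 of the most abundant class and 16 of the 22 in the lowest class were above 0. Genes on the plus strand had a median of 0.32 and on the minus strand 0.39, with 48 genes each.

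**Figure D4:**
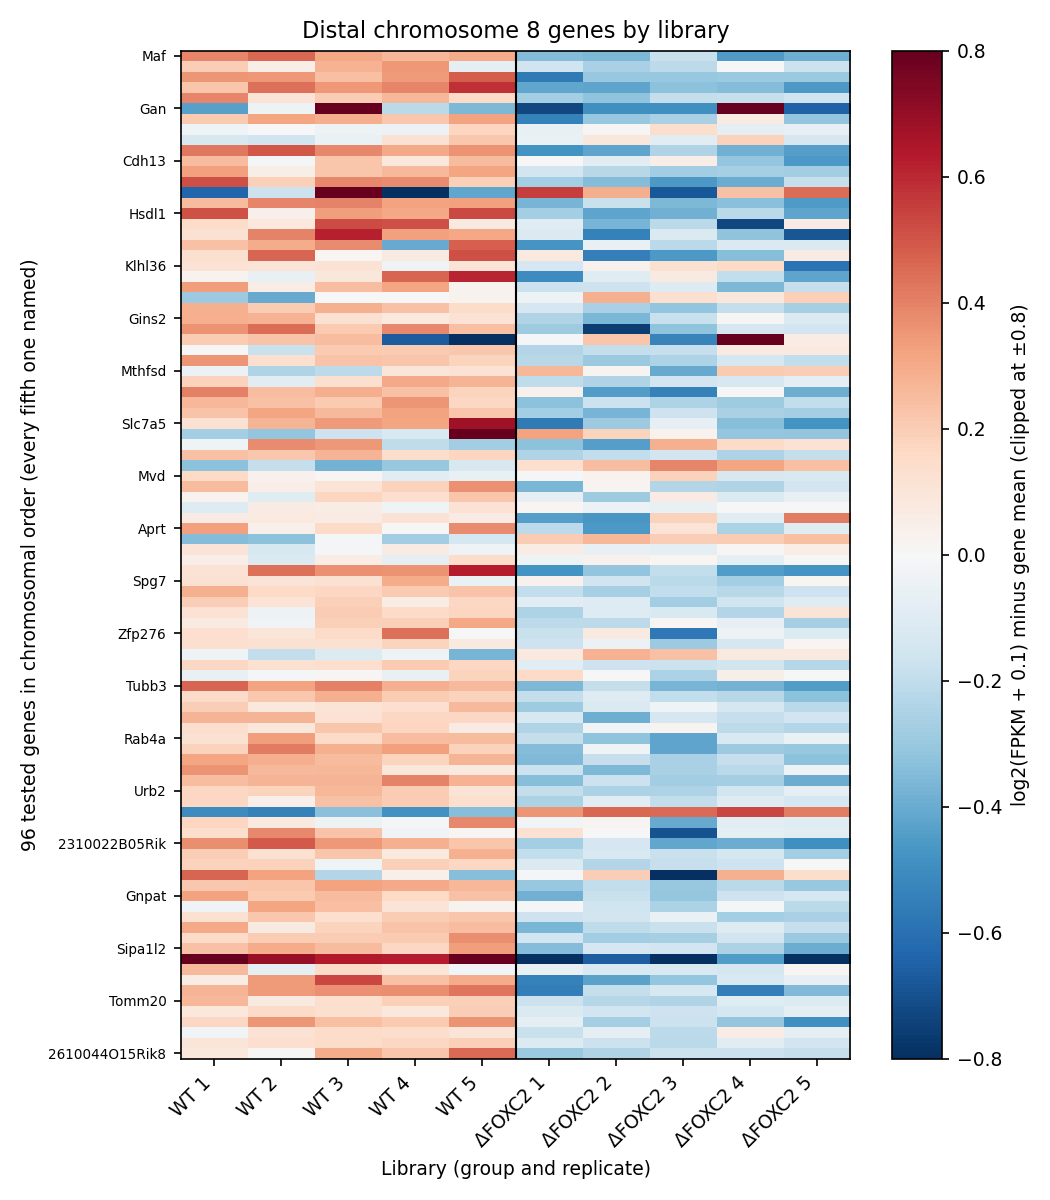
Rows are the 96 tested distal genes in chromosomal order and columns the 10 libraries, and colour gives log2(FPKM + 0.1) minus the gene's mean, clipped at 0.8. Most rows are red in the 5 wild-type libraries and blue in the 5 ΔFOXC2 libraries, and Pgbd5, Cyba, Galns and Spire2 show the opposite order.

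Closest to the targeted locus, log2 differences ran from -0.36 to 0.66. Within 0.5 Mb there were 6 tested genes. Mthfsd was the nearest to the point taken as the locus, at 0.0916 Mb. It had 1.20, 1.04, 1.06, 1.33 and 1.35 FPKM in wild-type cells and 1.51, 1.26, 0.913, 1.45 and 1.43 FPKM in ΔFOXC2 cells. Its groups overlapped, and its log2 difference of -0.11 did not pass (SE 0.140, limma adjusted p = 0.552). Cox4i1, a subunit of cytochrome c oxidase, had 113, 97.1, 104, 104 and 100.4 FPKM against 76.4, 72.2, 74.9, 80.6 and 77.7 FPKM. The groups did not overlap, and the difference of 0.44 (SE 0.0450, limma adjusted p = 1.735e-05) was under 1.5-fold. Emc8, a subunit of the endoplasmic reticulum membrane complex, starts head to head with Cox4i1 and overlaps it by 352 bases. It had 5.65 ± 0.673 against 4.94 ± 0.550 FPKM (log2 0.19, limma adjusted p = 0.149).

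Gins2, of the GINS complex that works with the replicative helicase, had 10.5 ± 0.753 against 8.24 ± 0.816 FPKM, a log2 difference of 0.36 (limma adjusted p = 0.00267) that was too small for a call. 1190005I06Rik rose, with 7.08, 7.52, 6.37, 7.20 and 6.51 FPKM against 4.496, 3.21, 4.37, 5.00 and 4.92 FPKM (log2 0.66, limma adjusted p = 0.000643). Its fold was no longer large enough when ΔFOXC2 replicate 2 (log2 0.55) was left out, or with a pseudocount of 1 (log2 0.57). Gm27021 overlaps 1190005I06Rik by 38847 bases and Emc8 by 14166 bases, on the same strand as both. These are overlaps of whole gene intervals, and shared exons were not examined. Its reads may be impossible to tell apart from theirs there. The level of Gm27021 is thus uncertain, and so are those of Emc8 and of 1190005I06Rik with its call. Gm27021 ranged from 0.521 to 1.29 FPKM in wild-type cells and from 0.711 to 2.56 FPKM in ΔFOXC2 cells (log2 -0.36, limma adjusted p = 0.404). Map1lc3b, the autophagosome protein LC3B, lies just past 0.5 Mb, with 17.0, 15.2, 15.6, 15.0 and 14.5 FPKM against 13.1, 9.35, 8.74, 12.8 and 9.71 FPKM. The groups did not overlap, but the fold was too small for a call (log2 0.54, limma adjusted p = 0.00239), and it passed without ΔFOXC2 replicate 1 (log2 0.62) or 4 (log2 0.61).

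The genes that rose were spread over the region. Mphosph6, a nuclear phosphoprotein linked to the RNA exosome, had 21.0, 22.1, 20.5, 19.3 and 20.1 FPKM in wild-type cells and 11.2, 11.6, 13.2, 11.97 and 11.5 FPKM in ΔFOXC2 cells. It rose by 0.79 on the log2 scale (SE 0.0537, limma adjusted p = 8.486e-07). Atmin, a zinc finger protein that interacts with the DNA damage kinase ATM, had 7.23, 8.44, 7.90, 8.14 and 9.33 FPKM against 4.62, 4.61, 4.91, 4.85 and 4.47 FPKM (log2 0.79, limma adjusted p = 4.27e-06). Cenpn, a centromere protein, had 11.7 ± 0.719 against 7.15 ± 0.561 FPKM (log2 0.71). In none of these did the groups overlap. Maf, a basic leucine zipper transcription factor, had 8.93 ± 0.503 against 5.50 ± 0.408 FPKM (log2 0.69), and Irf2bp2, a transcriptional corepressor, 18.8 ± 0.725 against 11.5 ± 1.602 FPKM (log2 0.71).

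Slc7a5, the large neutral amino acid transporter, had 67.0, 74.2, 77.9, 76.7 and 98.7 FPKM against 41.5, 50.4, 58.9, 48.5 and 44.2 FPKM (log2 0.69, limma adjusted p = 0.000414). Wild-type replicate 5 was the highest library, and the groups did not overlap. The tubulin Tubb3 had 36.3 ± 2.12 against 22.3 ± 1.49 FPKM (log2 0.70), and the secreted protein Wfdc1 1.29 ± 0.177 against 0.753 ± 0.146 FPKM (log2 0.71, or 0.39 and under the threshold with a pseudocount of 1). Chosen after their values were seen, the other 5 called higher by the fit were Mbtps1 (log2 0.68), which encodes site-1 protease, Hsdl1 (0.69), 2310022B05Rik (0.69), Mlycd (0.66), which encodes malonyl-CoA decarboxylase, and Tarbp1 (0.59). Mlycd lost its call with a pseudocount of 1 (log2 0.46). Tarbp1 lost it when any of wild-type replicates 2 and 3 and ΔFOXC2 replicates 1, 2 and 3 was left out, with a pseudocount of 1 and with median-of-ratios scaling (log2 0.45 to 0.58). Taf5l (log2 0.58), just under the threshold, passed when any 1 of 7 libraries was left out and with a pseudocount of 0.01 (log2 0.59 to 0.61).

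Against the regional shift, 6 genes departed. To find them, the median deviation of the 96 genes in each library was subtracted from them. The fit was then repeated over all 10570 genes with the same threshold. Distances from the regional median are thus taken per library, and differ slightly from distances to the median difference of 0.37. Above the regional median lay 1 gene, Ntpcr, and below it lay Pgbd5, Cyba, Galns, Spire2 and 6430548M08Rik. These are 1.04% and 5.21% of the 96, where 3.51% of all tested genes were called higher and 5.00% lower in that fit. Only the 96 genes were shifted in that fit. The other genes, those on the rest of the chromosome included, kept their plain differences between wild type and ΔFOXC2. The shares of all tested genes thus mostly measure another quantity, and the shares of the 96 cannot be judged against them. The 6 are described as single genes. The same 6 members departed when each gene was compared with its 15 nearest members instead.

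Ntpcr, a nucleoside triphosphatase, lies 4.73 Mb beyond the locus at chr8:125729963-125748235 on the plus strand. It had 2.79, 2.47, 2.36, 2.35 and 3.23 FPKM in wild-type cells and 0.694, 0.903, 0.711, 1.06 and 0.789 FPKM in ΔFOXC2 cells. All wild-type libraries were above all ΔFOXC2 libraries. It rose by a log2 difference of 1.56 (SE 0.130, limma adjusted p = 3.923e-06), which is 1.21 above the regional median (limma adjusted p = 2.132e-05). The difference was 0.99 with a pseudocount of 1 and 1.66 with 0.01.

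Pgbd5, a domesticated gene related to piggyBac transposases, was the member that fell, at chr8:124369049-124439658 on the minus strand. It had 0.838, 0.813, 0.954, 0.848 and 0.947 FPKM in wild-type cells and 1.59, 1.73, 1.71, 1.82 and 1.67 FPKM in ΔFOXC2 cells. The groups lay apart, with the ΔFOXC2 libraries higher (log2 -0.88, SE 0.0837, limma adjusted p = 9.949e-06). Against the regional median Pgbd5 stood at -1.23 (limma adjusted p = 5.468e-07). With a pseudocount of 1 the log2 difference was -0.52, under the fold threshold.

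Cyba encodes p22phox, the membrane subunit of NADPH oxidases. It had 5.33, 5.86, 5.14, 5.42 and 6.13 FPKM in wild-type cells and 7.37, 7.97, 8.84, 8.37 and 7.94 FPKM in ΔFOXC2 cells. The groups did not overlap, and the difference of -0.53 (SE 0.0654, limma adjusted p = 7.347e-05) was under 1.5-fold against 0 and -0.88 against the regional median (limma adjusted p = 2.83e-06). Cyba is also abundant in phagocytes. The leukocyte markers Cd68 and Lyz2 had a higher sum in ΔFOXC2 cells too, while Ptprc, Csf1r, Adgre1 and Cd3e had no row. The part of such cells in the difference of Cyba was not tested. Galns, a lysosomal sulfatase that degrades keratan sulfate, lies in the same stretch, with 6.35, 6.43, 8.05, 6.69 and 7.34 FPKM against 9.35, 9.76, 9.32, 9.36 and 9.60 FPKM. The groups did not overlap, and the difference was -0.44 against 0 (limma adjusted p = 0.000271) and -0.80 against the regional median (limma adjusted p = 1.759e-06).

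Spire2, an actin nucleator, had 2.77, 2.47, 2.63, 2.77 and 2.17 FPKM in wild-type cells and 3.01, 3.48, 3.37, 3.01 and 3.01 FPKM in ΔFOXC2 cells, with no overlap. Its difference was -0.30 against 0 (limma adjusted p = 0.0126) and -0.65 against the regional median (limma adjusted p = 0.00011). For 6430548M08Rik, 1.30, 1.19, 1.61, 1.62 and 1.65 FPKM stood against 1.57, 1.99, 1.77, 1.73 and 1.85 FPKM, and the groups overlapped. Its difference was -0.26 against 0 (limma adjusted p = 0.0726) and -0.62 against the regional median (limma adjusted p = 0.000577). It no longer departed without wild-type replicate 1 (centred log2 -0.58) or 2 (-0.56), and neither it nor Spire2 did with a pseudocount of 1 (-0.48 and -0.54).

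**Figure D5:**
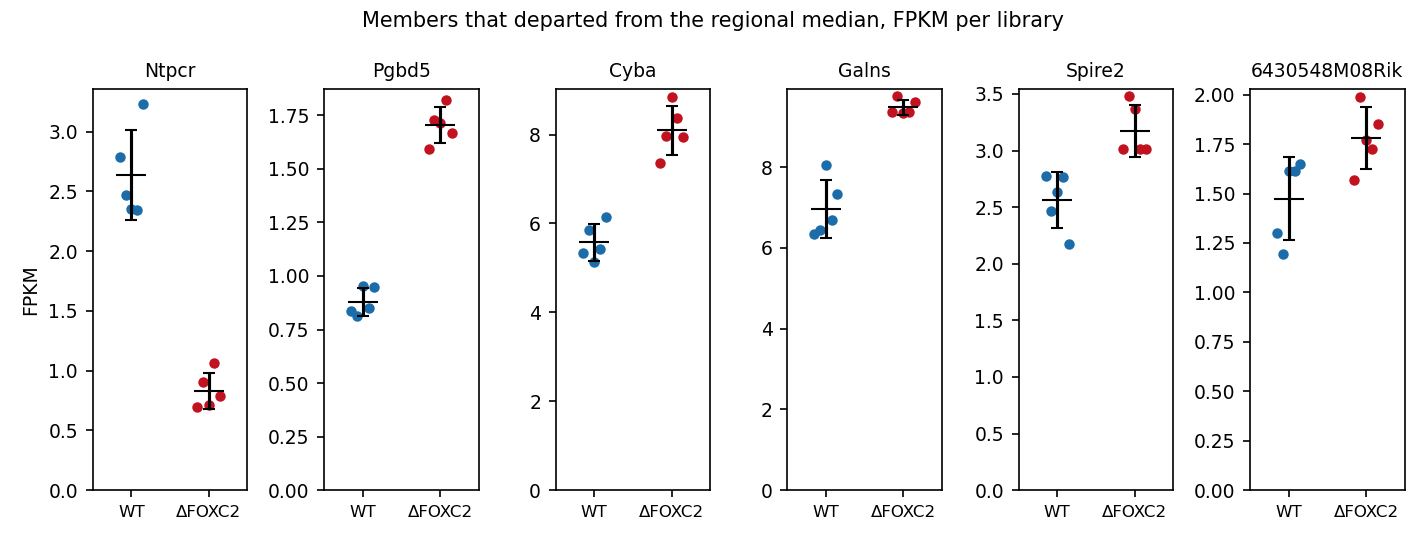
FPKM per library of the 6 genes that departed from the regional median, with the mean and SD (n = 5) of wild-type and ΔFOXC2 cells in black. Ntpcr is higher in every wild-type library, Pgbd5, Cyba, Galns and Spire2 are lower in every wild-type library, and the groups of 6430548M08Rik overlap.

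The windows around the starts of 4 genes are printed as examples. Ntpcr departed above the region, and Pgbd5 and Cyba below it. Mbtps1 rose and holds the single forkhead match, which lies among the 50 bases after its start. Mbtps1 lay 0.33 above the regional median (limma adjusted p = 0.00117), under 1.5-fold, so it was not counted as departing. Each window runs from 250 bases before to 50 bases after the RefSeq start in GRCm38.p6, 5′ to 3′ on the gene's strand, and capitals mark motif matches. The windows are chr8:125733953-125734252 (plus strand) for Ntpcr, chr8:124433887-124434186 (minus) for Pgbd5, chr8:122432891-122433190 (minus) for Cyba and chr8:119558712-119559011 (minus) for Mbtps1. The RefSeq starts of Ntpcr and Pgbd5 lie inside the genes' intervals in the deposited table.
Ntpcr: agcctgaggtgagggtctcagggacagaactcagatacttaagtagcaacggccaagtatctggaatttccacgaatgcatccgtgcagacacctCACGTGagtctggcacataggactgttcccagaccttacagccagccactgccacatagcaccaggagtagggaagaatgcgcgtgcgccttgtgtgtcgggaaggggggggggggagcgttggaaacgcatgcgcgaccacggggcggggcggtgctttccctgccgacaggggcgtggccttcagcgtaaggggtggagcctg
Pgbd5: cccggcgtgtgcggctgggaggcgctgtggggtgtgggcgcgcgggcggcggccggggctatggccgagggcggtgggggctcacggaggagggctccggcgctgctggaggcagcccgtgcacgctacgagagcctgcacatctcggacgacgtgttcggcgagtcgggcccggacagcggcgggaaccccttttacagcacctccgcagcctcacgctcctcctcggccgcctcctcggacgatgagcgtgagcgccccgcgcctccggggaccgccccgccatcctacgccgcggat
Cyba: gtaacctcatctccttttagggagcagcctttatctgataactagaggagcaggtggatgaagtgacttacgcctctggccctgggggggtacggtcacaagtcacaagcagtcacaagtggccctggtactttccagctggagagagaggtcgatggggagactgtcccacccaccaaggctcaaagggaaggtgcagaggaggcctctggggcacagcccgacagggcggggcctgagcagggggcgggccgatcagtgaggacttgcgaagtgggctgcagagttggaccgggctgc
Mbtps1: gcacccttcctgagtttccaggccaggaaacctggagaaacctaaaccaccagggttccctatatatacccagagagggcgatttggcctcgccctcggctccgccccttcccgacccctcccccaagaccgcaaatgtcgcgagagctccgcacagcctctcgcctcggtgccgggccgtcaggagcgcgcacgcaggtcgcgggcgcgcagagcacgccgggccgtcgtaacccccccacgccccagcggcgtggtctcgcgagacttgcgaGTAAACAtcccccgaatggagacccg
The motifs searched on both strands were the forkhead core TGTTTAC and the E-box letters CACGTG and CATGTG, which basic helix-loop-helix factors such as MITF can bind. CACGTG reads alike on both strands, and CATGTG can overlap its own reverse, CACATG. The forkhead core stood in 1 of 90 promoters listed for 77 of the 98 genes (1.11%) and in 3.65% of all 32851 promoters of the same length. CACGTG stood in 10.0% of the members' promoters, Ntpcr's among them, against 7.15% of all, and CATGTG in 10.0% against 14.2%. A match describes letters in this window and is not a binding site.

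Mc1r, Plcg2 and Cdt1 were not called. Mc1r, the melanocortin receptor that drives eumelanin synthesis, had 51.0, 52.9, 53.5, 51.0 and 60.1 FPKM in wild-type cells and 59.4, 53.0, 44.7, 54.96 and 53.0 FPKM in ΔFOXC2 cells. The groups overlapped (log2 0.02, SE 0.0716, limma adjusted p = 0.833), and against the regional median Mc1r stood at -0.33 (limma adjusted p = 0.00288), under 1.5-fold. The gene that follows it on the same strand is Tubb3, whose rise is given above, and the difference between the pair was not tested. Plcg2, a phospholipase of immune receptor signalling, had 8.24 ± 0.553 against 8.12 ± 0.523 FPKM (log2 0.02, limma adjusted p = 0.818). The replication licensing factor Cdt1 had 18.8 ± 0.275 FPKM in wild-type cells and 13.1, 12.8, 20.3, 16.8 and 23.8 FPKM in ΔFOXC2 cells (log2 0.16, limma adjusted p = 0.433), so its ΔFOXC2 libraries lay on both sides of the wild type. For Osgin1, a stress-responsive gene chosen after its values were seen, 1 library set the result. It had 2.80, 3.88, 12.8, 1.92 and 3.27 FPKM against 6.49, 5.38, 2.71, 5.19 and 6.03 FPKM (log2 -0.34, limma adjusted p = 0.559), and without wild-type replicate 3 it passed as lower (log2 -0.76, limma adjusted p = 0.0413).

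The 5 role lists had medians of 0.31 to 0.46, on both sides of the regional 0.37. Their counts stand beside regional shares of 16.7% called higher and 1.04% lower, and 3.65% and 4.97% over all tested genes, and the lists were not tested against the region. Of 9 tested genes of DNA replication, repair and mitosis, 2 rose (Cenpn and Atmin) and 0 fell, with a median log2 difference of 0.36. With the fold left aside, 8 of these 9 passed as higher, as did 70.8% of the region and 20.8% of all tested genes. In the other lists, in the order given below, 9 of 12, 8 of 11, 11 of 16 and 9 of 15 genes did so. Fanca, of the Fanconi anaemia core complex, had 7.32 ± 0.193 against 6.14 ± 0.4998 FPKM (log2 0.25, limma adjusted p = 0.00578). Of 12 genes of mitochondrial, peroxisomal and small-molecule metabolism, 1 rose (Mlycd) and 0 fell, with a median of 0.35. Tomm20, a receptor of mitochondrial protein import, had 74.4 ± 3.67 against 58.7 ± 2.73 FPKM (log2 0.34), and Gcsh, of the glycine cleavage system, 28.9 ± 2.22 against 21.1 ± 0.996 FPKM (log2 0.45). Both were under 1.5-fold. The peroxisomal enzyme Gnpat, of ether lipid synthesis, had 21.9 ± 0.909 against 15.8 ± 1.15 FPKM (log2 0.47), and Spg7, a subunit of a mitochondrial protease, 14.2 ± 1.23 against 12.1 ± 1.17 FPKM (log2 0.24, limma adjusted p = 0.0282, groups overlapping).

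Of 11 tested genes of transcription and chromatin, 3 rose (Maf, Ankrd11 and Irf2bp2) and 0 fell, with a median of 0.46. Gse1, of a corepressor complex, had 5.26 ± 0.214 against 3.79 ± 0.191 FPKM (log2 0.46, limma adjusted p = 5.804e-05). Of 16 genes listed under ubiquitin transfer, autophagy and vesicle traffic, 1 rose (Mbtps1) and 0 fell, with a median of 0.39. The site-1 protease gene Mbtps1 fits that heading only loosely, as does Emc8. Usp10, a deubiquitinase, had 5.77 ± 1.22 against 4.15 ± 0.693 FPKM (log2 0.46, limma adjusted p = 0.0276), and the ubiquitin ligase subunit Fbxo31 had 3.07 ± 0.329 against 2.44 ± 0.116 FPKM (log2 0.32, limma adjusted p = 0.00919). In both the groups overlapped. Of 15 genes listed under cell surface, adhesion and signalling, 1 rose (Slc7a5) and 0 fell, with a median of 0.31. Cyba passed as lower with the fold left aside. Galnt2 and Egln1 fit that heading only loosely. Itgb1, the integrin beta-1 subunit, had 174 ± 4.28 against 142 ± 4.97 FPKM (log2 0.30, limma adjusted p = 2.693e-05) and no overlap. Pard3, a cell polarity protein, had 3.87 ± 0.235 against 2.66 ± 0.296 FPKM (log2 0.53), Galnt2, which starts mucin-type O-glycans, 25.1 ± 1.31 against 20.2 ± 0.964 FPKM (log2 0.31), and Egln1, the oxygen-sensing prolyl hydroxylase, 17.7 ± 1.04 against 13.3 ± 0.875 FPKM (log2 0.41), all 3 without overlap and under 1.5-fold. The neuropilin Nrp1 had 4.398 ± 0.213 against 3.84 ± 0.293 FPKM (log2 0.19, limma adjusted p = 0.0338), and Cdh13, a cadherin without a cytoplasmic domain, 0.595 ± 0.0569 against 0.461 ± 0.0812 FPKM (log2 0.32, limma adjusted p = 0.0866). The actin-binding protein Cotl1 had 109, 137, 100, 105 and 142 FPKM against 105, 67.9, 72.2, 78.5 and 104 FPKM (log2 0.48, limma adjusted p = 0.0192), and the groups overlapped. Rpl13, a ribosomal protein and the most abundant of the 98, had 261 ± 9.57 against 195 ± 5.11 FPKM (log2 0.42, limma adjusted p = 2.338e-06). Hsbp1, which binds heat shock factor, had 55.1 ± 4.17 against 39.6 ± 1.55 FPKM (log2 0.47, limma adjusted p = 3.957e-05). Ribosomal protein genes have many processed copies in the genome, so the level of Rpl13 is uncertain.

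The 2 genes under the filter both had higher means in the wild type. Cdyl2, a chromodomain protein 4.43 Mb proximal of the locus, had 0.505, 0.745, 1.09, 0.750 and 0.997 FPKM in the wild type, while all 5 ΔFOXC2 libraries list it at 0. An exact 0 in such a table can be a failed estimate. Without the filter the fit called it (limma adjusted p = 4.794e-07), and no fold is given. Disc1, a scaffold protein of neuronal development, had 0.630, 0.526, 0.571, 0.529 and 0.709 FPKM against 0.331, 0.339, 0.348, 0.294 and 0.576 FPKM. Its groups overlapped through ΔFOXC2 replicate 5 (log2 0.56, limma adjusted p = 0.0182 without the filter).

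Neighbours that start head to head could be compared within pairs. In the table's coordinates, 10 pairs of the 98 genes lie on opposite strands with starts at most 1000 bases apart, and in 8 of them both genes were above 0. Of all tested members, 90.6% were above 0, so most pairs of any kind would have both above 0. Cox4i1 is counted both with Gm27021 and with Emc8, which overlap each other. Exoc8 and Sprtn, with starts 181 bases apart, had log2 differences of 0.26 and 0.36. Taf5l and Urb2, 111 bases apart, had 0.58 and 0.37, and 2810004N23Rik and Gnpat, whose starts overlap by 88 bases, 0.53 and 0.47. Galns and Trappc2l, 177 bases apart, had -0.44 and 0.00, and Cmc2 and Cenpn, 275 bases apart, 0.32 and 0.71. The differences within pairs were not tested. Of all pairs of neighbours, 10 overlap, among them Gins2 with Gse1, Piezo1 with Ctu2, Fanca with Zfp276 and Tarbp1 with Coa6, and their values are uncertain where the counting did not use the strand, which the sources used here do not state.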

How the data were processed

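The deposited table holds FPKM values that the authors computed for 10735 genes in 10 libraries. The submitters' processing notes name FastQC, cutadapt, HISAT2, StringTie and build GRCm38, and versions are not given in the sources used here. Per the labels' protocols, libraries were made from poly(A) RNA with a kit that keeps the strand (dUTP). Since FPKM divides by all mapped fragments, the shift of a region is relative to the other genes.

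The values were used as deposited. For all 10570 genes whose mean over the libraries reached 0.5 FPKM, log2(FPKM + 0.1) was fitted with limma 3.58.1 (R 4.3.3, lmFit, then eBayes with a variance trend) without covariates, two-sided, with ΔFOXC2 as the reference. P-values were adjusted by Benjamini-Hochberg over all of these genes, and a call needs 0.05 or less and 1.5-fold. The fit was also run on simulated data with independent normal values, which hold no effects shared within a library. No result here rests on that run. Tables were made with Python 3.11.15. GC content came from GENCODE transcripts, where 97 of the 98 genes had identical coordinates, and promoters from RefSeq (GRCm38.p6). The members, role lists and motifs were chosen with earlier results of these data known. Genes were named if they lay within 0.5 Mb of the locus, were among the 10 largest called differences in a direction, departed from the regional median, were among the 8 most abundant, bordered the region's proximal limit or stood on a list of names. Alternatives were other pseudocounts, filters, scaling, variance models and limits, the replicate number as a block, and each library left out.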

Additional observations from a re-analysis of the deposited data

Results flagged for a closer look

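In 5 of 88 groups of 5 libraries examined, 1 library stood apart from the other 4 by most of the group's range, where chance marks about 5% of groups. Cenpn had 6.15 FPKM in ΔFOXC2 replicate 1 and 7.39 to 7.41 FPKM in the other ΔFOXC2 libraries. Mc1r had 60.1 FPKM in wild-type replicate 5 against 51.0 to 53.5 FPKM, and Plcg2 9.21 FPKM in the same library against 7.90 to 8.16 FPKM. Cdt1 had 19.3 FPKM in wild-type replicate 4 against 18.7 to 18.8 FPKM. Nrp1, the neuropilin-1 receptor, had 4.03 FPKM in wild-type replicate 1 against 4.41 to 4.55 FPKM.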

How the results depend on the processing

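The median difference of the members was 0.37, and 0.36 to 0.38 when single libraries were left out. It was 0.33 with a pseudocount of 1 and 0.40 with a filter at 5 FPKM, both moves larger than the SD of 0.0282 between library medians. With the limit 11 or 3 Mb before the locus it was 0.38 or 0.36. Called higher were 12 members with a pseudocount of 1 or a filter at 5 FPKM, and 15 to 19 under the other alternatives. The members called lower were 0 with a pseudocount of 1 or a filter at 5 FPKM, and 1 to 2 when single libraries were left out (Osgin1 was added without wild-type replicate 3). Of all tested genes, 2.18% were called higher and 3.20% lower with a pseudocount of 1, and 1.80% and 3.17% with a filter at 5 FPKM. Members above the regional median were 2 without a filter, Cdyl2 being added, and 0 with the filter at 5 FPKM, which removes Ntpcr. Those below it were 3 with a pseudocount of 1, 2 with the filter at 5 FPKM, and 4 to 6 when single libraries were left out. Cmip, Ccsap, Taf1c and Map1lc3b were called higher only when a ΔFOXC2 library was left out. The log2 difference of Mc1r ranged from -0.0380 to 0.0644 when single libraries were left out, and that of Plcg2 from -0.0203 to 0.0573, and neither was called. The cause of these moves was not tested.

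Both groups carry replicate numbers 1 to 5, and the deviations of same-numbered libraries had correlations of 0.14, -0.12, 0.05, 0.09 and 0.11. Between differently numbered libraries they ran from -0.15 to 0.11. Correlations this small do not settle whether same-numbered libraries share more than the number. With the replicate block, 16 members were called higher and 1 lower, against 3.69% and 4.98% of all tested genes, the median was 0.37, and 1 member lay above and 5 below the regional median.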
